A study of Mus musculus with 40 samples.

Results

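The genes described are 10 receptors for serotonin (*Htr1a*, *Htr1b*, *Htr1d*, *Htr1f*, *Htr2a*, *Htr2c*, *Htr3a*, *Htr4*, *Htr5a* and *Htr7*), taken by symbol from the 47643 Ensembl genes counted in the hippocampus and frontal cortex of colonized mice. All 10 were found in both tables. In brief, *Htr2c* was the receptor with the most reads in both regions, the other receptors came and went between libraries, and no receptor passed the adjusted test between post-KD and pre-KD recipients in either region. *Htr1d* was without a read in the hippocampus and present in part of the frontal cortical libraries.

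The recipients were germ-free wild-type Swiss Webster mice, an outbred stock, 6 to 8 weeks old and described in the methods as female, all on the same control diet. Each of 20 cohorts received the fecal microbiota that 1 of 10 children with refractory epilepsy gave before a ketogenic diet (pre-KD) or during it (post-KD). Tissue was taken on day 4, and each RNA library is a pool of 6 mice of a cohort, so the spread between mice is not seen and the replicate is the cohort. The 4 groups, hippocampus pre-KD, hippocampus post-KD, frontal cortex pre-KD and frontal cortex post-KD, hold 10 libraries each, and the 2 regions of a cohort come from the same mice. No cohort that stayed germ-free or received another microbiota was analysed here, so the values compare the 2 kinds of human inoculum only.

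Serotonin is released by axons of raphe neurons of the brainstem that reach almost the whole forebrain, and its effect on a neuron depends on the receptors that the neuron carries. The HTR1 receptors and HTR5A couple to inhibitory G proteins, which lower cyclic AMP and, for HTR1A, open potassium channels. HTR2A and HTR2C couple to Gq and phospholipase C, and HTR4 and HTR7 to Gs and adenylyl cyclase. HTR3A is the exception, a subunit of a ligand-gated cation channel found on a class of cortical and hippocampal interneurons. In the hippocampus HTR1A is a main receptor of pyramidal and granule cells. HTR2C is abundant in the choroid plexus as well as in neurons, and mice without it have spontaneous seizures.

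The split between channel and G protein-coupled receptors can be read from the coding sequences, and the stretch shown is the one that the G protein-coupled members have in common. A search of the longest coding transcript of each gene (GENCODE M21, build GRCm38) found the aspartate-arginine-tyrosine triplet at the inner end of the third transmembrane helix, a hallmark of this receptor class, once in 9 of the 10 proteins and not in HTR3A. The 30 coding bases that start at the triplet are given 5′ to 3′, with the 9 bases of the triplet in capitals.
Htr1a: GACAGGTACtgggcaatcaccgaccctata
Htr1b: GACCGCTACtgggccatcaccgatgcggtg
Htr1d: GACAGATACtgggccatcaccgatgccctg
Htr1f: GATAGGTACcgcgccatcacagatgcagtt
Htr2a: GACCGCTACgtggctatccagaaccccatt
Htr2c: GACCGGTATgtagcaatacgtaatcctatt
Htr5a: GACCGCTACtggtcaatcacgcgccacctg
Htr7: GACAGGTACcttgggatcaccaggcccctc
The windows of *Htr1b* and *Htr1d*, close paralogs, were identical at 26 of the 30 bases, the most of any pair of the windows shown. Those of *Htr2a* and *Htr2c* were identical at 21. In *Htr2c* (chromosome X from 146962513 to 147197277) the stretch just behind the triplet carries the adenosines that ADAR enzymes edit in the mature transcript, which changes coupling to Gq. Such editing is not visible in counts per gene. The windows lie in coding exons of *Htr1a* (chromosome 13 from 105443639 to 105448122), *Htr1b* (chromosome 9 from 81628291 to 81633828), *Htr1d* (chromosome 4 from 136423524 to 136444398), *Htr1f* (chromosome 16 from 64924729 to 65105854), *Htr2a* (chromosome 14 from 74640840 to 74709494), *Htr5a* (chromosome 5 from 27842149 to 27855088) and *Htr7* (chromosome 19 from 35958734 to 36057507). Exons of *Htr1b* share 852 of 4724 bases with the antisense gene *D430036J16Rik*, and since use of strand in counting is not stated, reads of these bases cannot be assigned to one or the other. The other 9 receptors share no exon base with another annotated gene.

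Libraries held 1140756 to 2095352 counts on genes, of which the 10 receptors together held 23 to 221 (median 101), so each receptor was measured by few reads. A library had a count for 3 to 10 of them (median 5). The 8 libraries of donors 9 and 10 stood apart, with 77.9 to 179 CPM (edgeR's counts scaled to a common library size after TMM normalization) summed over 4 Y-linked genes and 3.36 to 27.2 CPM of *Xist*. The other 32 libraries had 446 to 727 CPM of *Xist* and 0 to 15.9 CPM of the Y-linked genes, 1 of them over 5 CPM. Mice of the first pattern do not match the female mice of the methods, and as *Htr2c* is X-linked, results are given with and without these donors where the call or the direction changed. The regions carried their own markers: 7 of 8 hippocampal marker genes were called lower in frontal cortex than in hippocampus and 2 of 7 neocortical ones higher, with 1, *Fezf2*, lower. Markers of neighbouring tissue also differed between the dissections. Summed choroid plexus markers were at 707 to 5722 CPM in hippocampal and 132 to 908 CPM in frontal cortical libraries (7 of 10 called lower in frontal cortex). Striatal markers were at 32.6 to 296 CPM in hippocampal and 504 to 1094 CPM in frontal cortical libraries (6 of 6 tested called higher). Fewer cells of a type and less RNA per cell cannot be told apart in such bulk tissue.

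**Figure D1:**
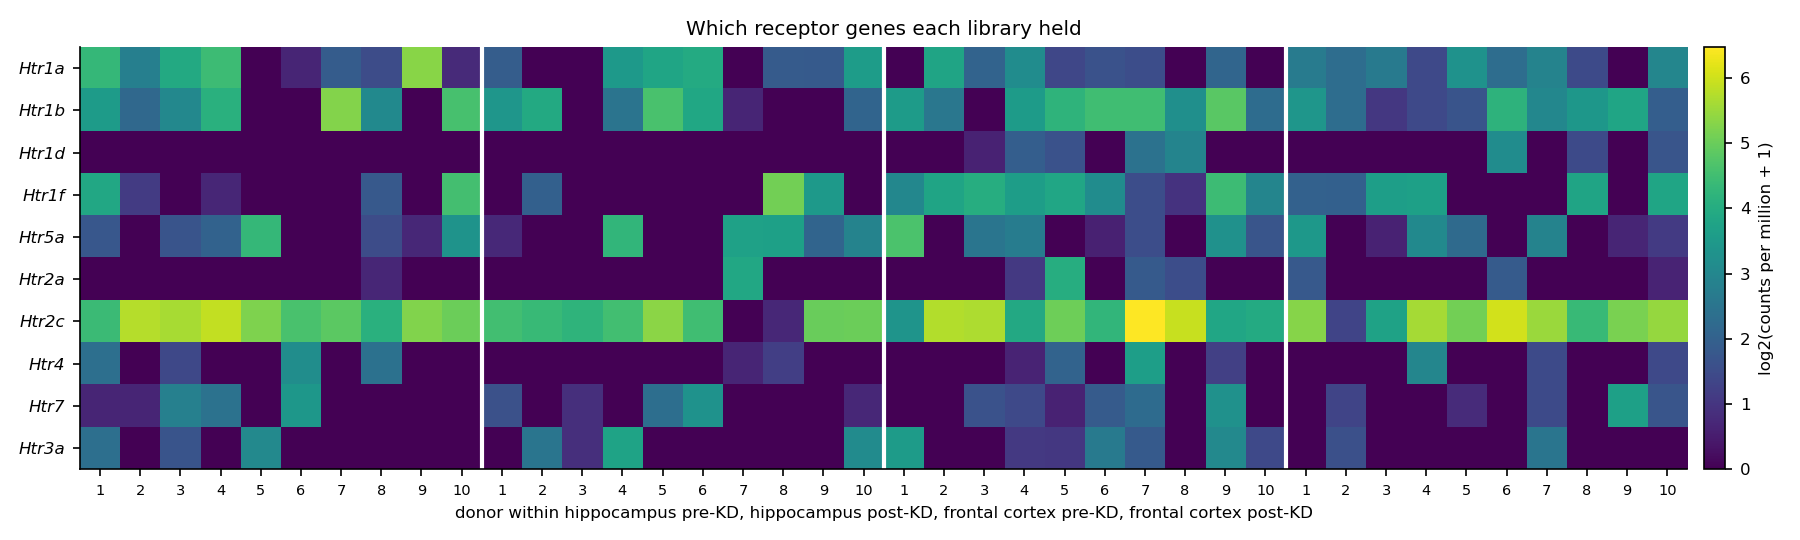
Level of each receptor gene (rows) in each library (columns, donors 1 to 10 within each of the 4 groups), as log2(CPM + 1). Only the *Htr2c* row is filled nearly throughout (39 of 40 libraries with a count), while *Htr1d* is empty over all 20 hippocampal libraries.

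*Htr2c* held 864 of the 1834 receptor counts of the hippocampus and 1123 of the 2216 of the frontal cortex, a share of 47.1% and 50.7%. It had a count in 39 of 40 libraries. Its level ran from 0 to 57.7 CPM in hippocampal libraries (median 25.7) and from 1.49 to 88.1 CPM in frontal cortical ones (median 34.1). The regions thus overlapped from 1.49 to 57.7 CPM, and the highest frontal cortical libraries lay above every hippocampal one. *Htr1b*, an autoreceptor and heteroreceptor of axon terminals, was next with a count in 33 libraries, 262 counts in hippocampal and 322 in frontal cortical libraries. *Htr1a* had a count in 32 libraries, *Htr5a* in 27, *Htr1f* in 24, *Htr7* in 21, *Htr3a* in 16, *Htr4* in 13, *Htr2a* in 9 and *Htr1d* in 8.

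More libraries lacked a read than Poisson counting would leave. For *Htr1a*, 381 counts spread evenly by library size would leave 0.00766 of 40 libraries empty, and 8 were empty. *Htr1f*, which is found on neurons of deep cortical layers, had 396 counts and 16 empty libraries against 0.00565 by counting alone. *Htr3a* was empty in 24 libraries, where counting would leave 2.104. The variance of the counts over 40 libraries was 7.99 to 18.9 times their mean for the 9 receptors other than *Htr1d*, at 6.27. A single library thus often held a large part of a receptor's reads: 23 of the 24 hippocampal counts of *Htr2a* (95.8%) came from 1 post-KD library, and 51 of the 72 counts of *Htr1f* in the post-KD hippocampus (70.8%) from another.

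**Figure D2:**
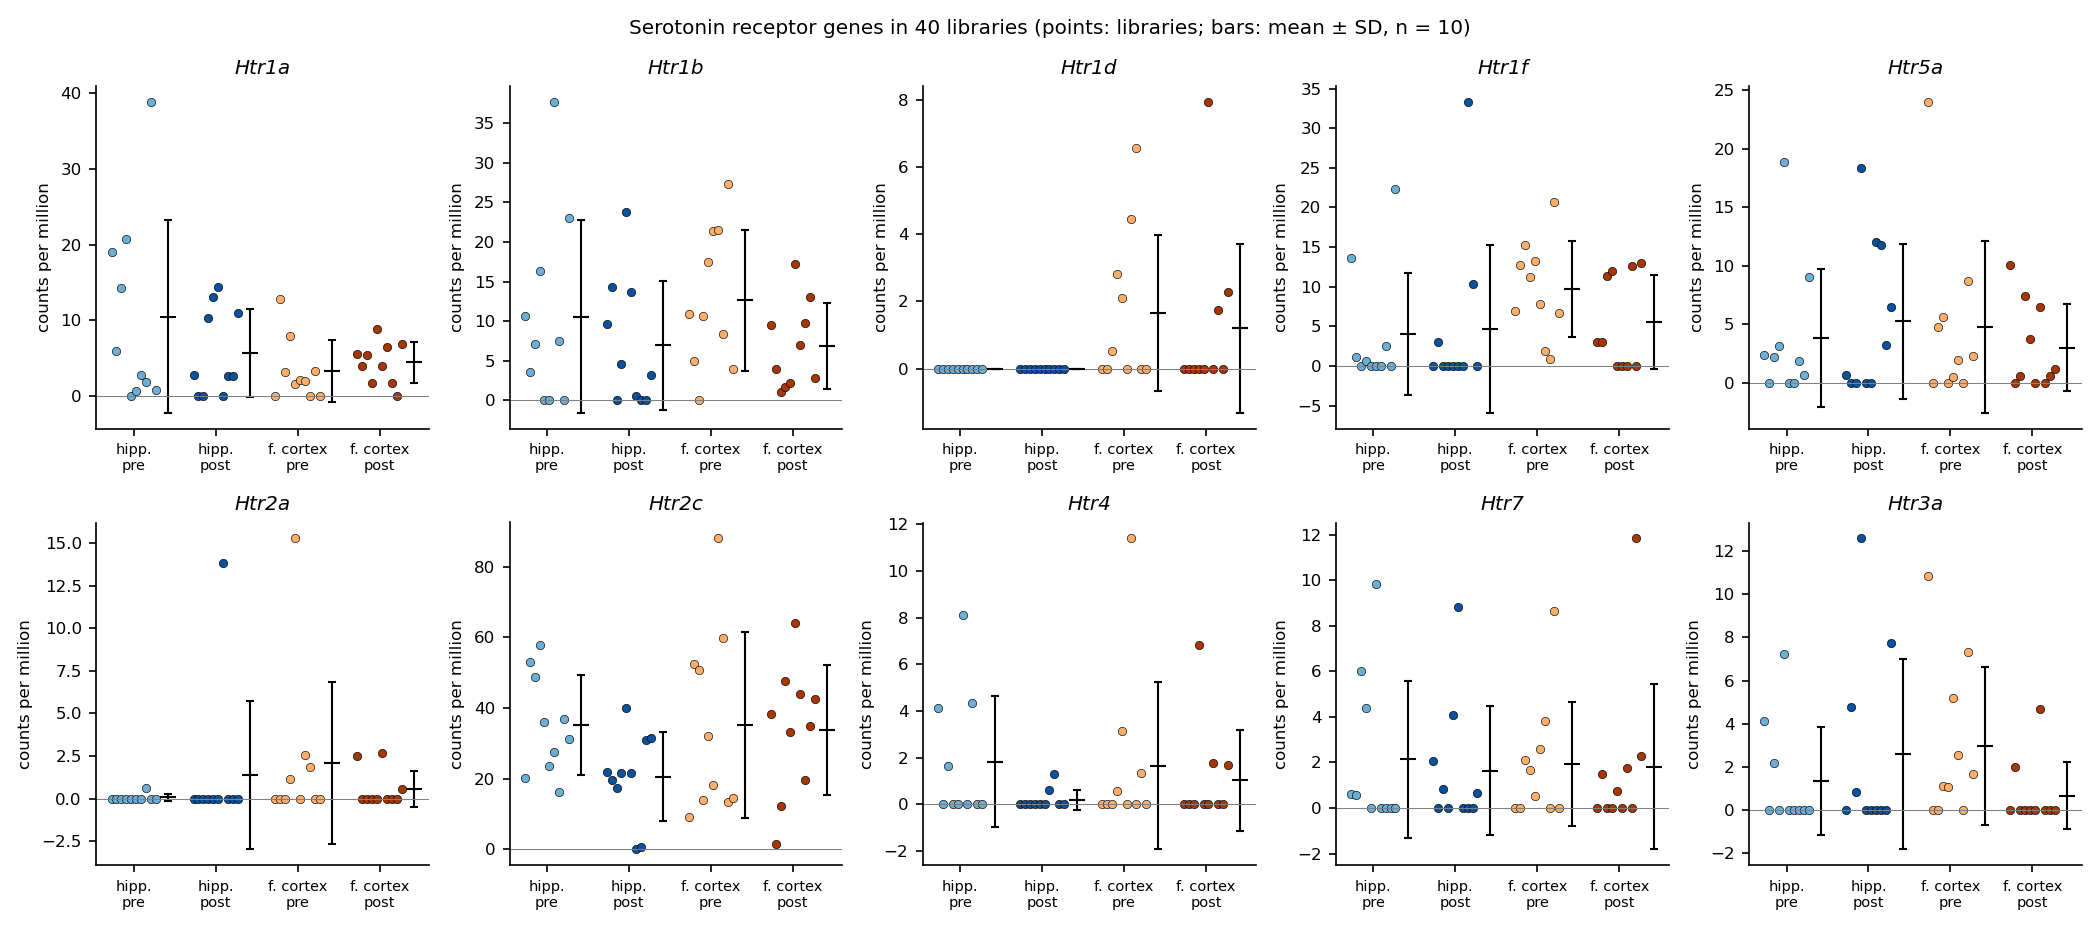
CPM of each receptor in every library by group (points, left to right in the order of donors; 10 per group), with the mean and SD as bars beside the points and a y axis of its own for each gene. All 10 receptors overlap between pre-KD and post-KD libraries in both regions, and the SD exceeds the mean in most groups of receptors other than *Htr2c*.

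Levels were compared between receptors per kilobase of merged exon. This scale holds for a kit that reads the whole transcript, which the methods name; the list of resources names a kit that reads the 3′ end, and with that kit CPM itself would be the scale. In the hippocampus *Htr2c* came first at 2.99 ± 1.62 CPM per kilobase (SD, n = 20 libraries), then *Htr1b* at 1.86 ± 2.16, *Htr1a* at 1.80 ± 2.22 and *Htr1f* at 1.68 ± 3.49. Behind them were *Htr3a* at 0.949 ± 1.70, *Htr5a* at 0.842 ± 1.15, *Htr7* at 0.557 ± 0.908, *Htr4* at 0.205 ± 0.434 and *Htr2a* at 0.129 ± 0.550. *Htr1d* was at 0. The ranges of all neighbours with a count overlapped, so the order among them is that of the means only.

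In the frontal cortex the order per kilobase was *Htr2c* at 3.70 ± 2.37 (SD, n = 20 libraries), *Htr1f* at 2.95 ± 2.42, *Htr1b* at 2.06 ± 1.64, *Htr3a* at 0.875 ± 1.43 and *Htr1a* at 0.860 ± 0.763. Behind them were *Htr5a* at 0.721 ± 1.07, *Htr7* at 0.552 ± 0.918, *Htr1d* at 0.443 ± 0.739, *Htr4* at 0.273 ± 0.589 and *Htr2a* at 0.237 ± 0.612. Every pair of neighbours overlapped. By CPM in place of CPM per kilobase, 5 of the 10 receptors kept their rank in the frontal cortex.

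**Figure D3:**
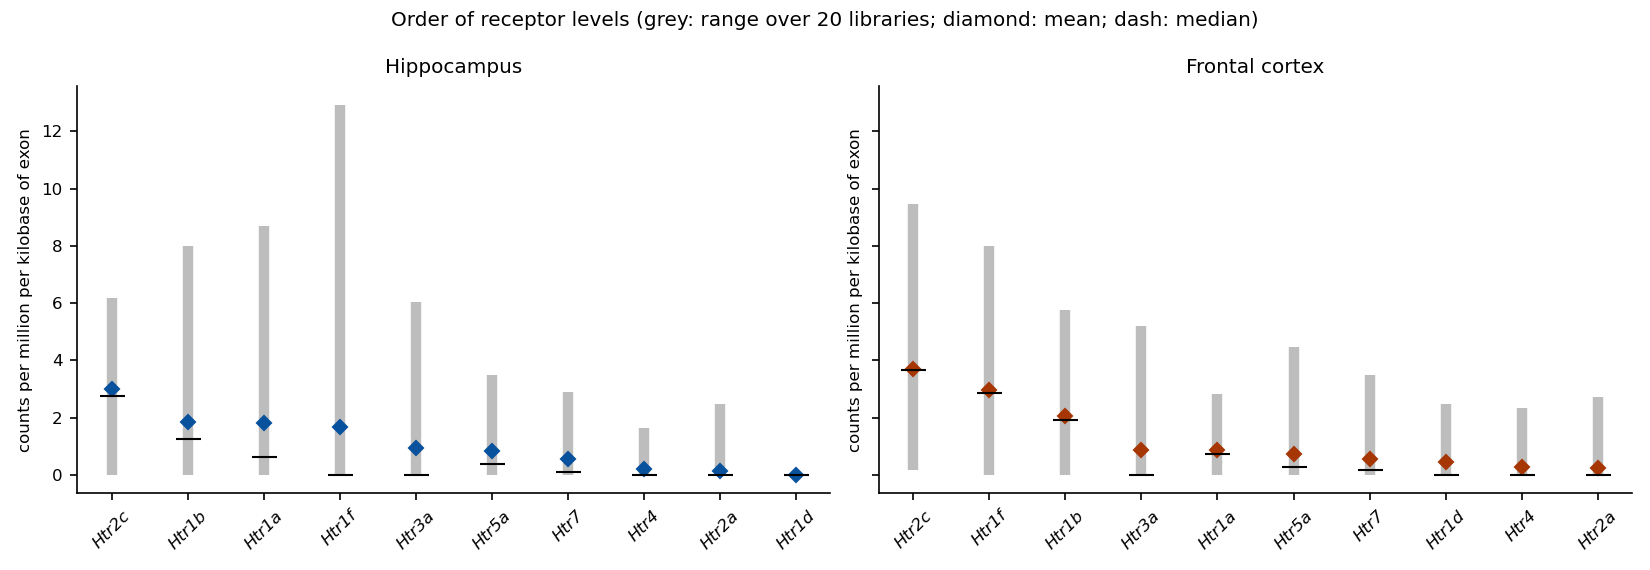
Receptors ordered by mean CPM per kilobase of exon in each region (diamonds: mean of 20 libraries; dashes: median; grey: lowest to highest library). *Htr2c* is first in both regions, at 2.99 and 3.70, and the grey ranges of neighbours overlap except beside *Htr1d* in the hippocampus, which has no range.

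The comparison of post-KD with pre-KD recipients asks whether the diet-associated microbiota came with another receptor level in the brain. In the hippocampus 9 receptors had the minimum of 10 counts needed for testing and 0 of the 9 passed an adjusted p of 0.05 in edgeR, where 0.0057% of all genes tested did. At an unadjusted p under 0.05 it was 1 of 9 in edgeR, against 10.1% of all genes, and 0 of 9 in DESeq2, against 3.42% of all genes, in which 0 also passed after adjustment. The median log2 fold change of the 9 was -0.38, 4 positive and 5 negative, beside -0.0076 over all genes tested. *Htr1d* had no count in either condition.

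*Htr2c*, the best measured of them, ran from 16.1 to 57.7 CPM in pre-KD hippocampus (median 33.8) and from 0 to 40.1 CPM post-KD (median 21.7). The groups overlapped, and the 2 lowest libraries, with 0 and 1 count, were the post-KD libraries of donors 7 and 8, while the other 8 post-KD libraries lay between 17.4 and 40.1 CPM. The means were 35.2 ± 14.2 and 20.6 ± 12.7 CPM (SD, n = 10), and the level was lower post-KD for 7 of 10 donors. On the log2 scale the change post-KD was -0.77 (SE 0.49, p = 0.116, adjusted p = 0.772 in edgeR). With the donor as a block it was -1.14 (p = 0.0434, adjusted p = 1) in edgeR and -1.13 (p = 0.0176, adjusted p = 0.752) in DESeq2. Without donors 9 and 10 it was -0.98 (adjusted p = 0.657).

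*Htr2a*, the Gq-coupled receptor of cortical pyramidal cells, was the 1 receptor under the unadjusted threshold (edgeR log2 fold change 3.37, SE 1.46, p = 0.0228, adjusted p = 0.297). This rested on a single library: 1 count in 10 pre-KD libraries (0.621 CPM, donor 8) and 23 counts post-KD, all in the library of donor 7 (13.8 CPM). The other 18 hippocampal libraries had no count of *Htr2a*. DESeq2 gave a change of -0.15 for it (adjusted p = 0.9999), and without the libraries of donor 7 the gene had too few counts to be tested. The library of donor 7 is the one without a read of *Htr2c*.

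Among the receptors coupled to inhibitory G proteins, *Htr1a* ran from 0 to 38.9 CPM pre-KD (median 4.29) and from 0 to 14.4 CPM post-KD (median 2.68), a log2 fold change of -0.87 (SE 0.98, adjusted p = 0.9998). For 6 of 10 donors the post-KD library was the lower of the pair. *Htr1b* ran from 0 to 37.7 CPM (median 7.28) and from 0 to 23.7 CPM (median 3.90), at -0.60 (SE 0.96). *Htr1f* had a count in 5 libraries pre-KD and in 3 post-KD, with a highest value of 22.3 and 33.4 CPM, and a log2 fold change of 0.20 (SE 1.26). *Htr5a* ran from 0 to 18.8 CPM (median 2.02) and from 0 to 18.3 CPM (median 1.96), at 0.47 (SE 1.20). All of these SEs are larger than the change beside them.

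The Gs-coupled *Htr4* had 31 counts in 4 pre-KD libraries and 3 counts in 2 post-KD libraries of the hippocampus, with a highest value of 8.10 and 1.31 CPM. Its change was -2.80 on the log2 scale (SE 1.53, p = 0.0698, adjusted p = 0.603 in edgeR), and -1.87 with the donor as a block (adjusted p = 1). *Htr7* had a count in 5 libraries of each condition, with a highest value of 9.83 and 8.82 CPM, and changed by -0.38 (SE 1.45). The channel subunit *Htr3a* had a count in 3 libraries pre-KD and in 4 post-KD, up to 7.24 and 12.6 CPM, at a log2 fold change of 0.91 (SE 1.46). None of these 3 passed the test, and the intervals are too wide to say that the levels were alike.

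In the frontal cortex all 10 receptors were tested and 0 passed an adjusted p of 0.05 in edgeR, with 0.0056% of all genes passing. At an unadjusted p under 0.05 it was also 0 of 10, against 9.68% of all genes, and DESeq2 gave 0 by either threshold, with 0.0113% of all genes past the adjusted and 4.62% past the unadjusted one. The log2 fold change was negative for 9 of 10 receptors (median -0.65, beside 0.0087 over all genes tested). DESeq2 gave 8 of 10, and the signs of several of these changes turned when 1 donor was left out.

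*Htr2c* ran from 9.30 to 88.1 CPM in pre-KD frontal cortex (median 25.2) and from 1.49 to 64.2 CPM post-KD (median 36.6). The highest library was a pre-KD one and the lowest a post-KD one, while the medians lay the other way round. The means were 35.3 ± 26.4 and 33.8 ± 18.3 CPM (SD, n = 10), with a log2 fold change of -0.06 (SE 0.36, adjusted p = 0.998 in edgeR), and the level was higher post-KD for 6 of 10 donors. The difference was thus small beside its SE.

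*Htr3a* had a count in 7 pre-KD libraries (up to 10.9 CPM, median 1.40) and in 2 post-KD libraries (1.99 and 4.69 CPM) of the frontal cortex. It was lower post-KD for 6 donors, higher for 2 and without a count for 2, and the log2 fold change was -2.02 (SE 1.29, p = 0.121, adjusted p = 0.759 in edgeR). Over the donors left out in turn the unadjusted p of *Htr3a* ran from 0.0225 to 0.307 and the adjusted p from 0.331 to 0.952. *Htr1f* had a count in all 10 pre-KD libraries (0.936 to 20.6 CPM, median 9.53) and in 6 post-KD libraries (up to 13.03 CPM, median 3.001). Its change was -0.82 (SE 0.76, adjusted p = 0.943 in edgeR), and -1.85 in DESeq2 with donor as a block (p = 0.0194, adjusted p = 0.492). *Htr1b* was at 0 to 27.3 CPM pre-KD (median 10.8) and at 1.08 to 17.2 CPM post-KD (median 5.51), falling short of its pre-KD partner in 8 of 10 donors; the change was -0.88 (SE 0.64, p = 0.177, adjusted p = 0.861 in edgeR).

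The remaining receptors of the frontal cortex had an adjusted p of 0.883 or more. *Htr1a* was the 1 with a positive change, 0.43 (SE 0.95), at 0 to 12.7 CPM pre-KD (median 1.99) and 0 to 8.88 CPM post-KD (median 4.68). *Htr2a* had counts in 4 pre-KD libraries, the highest at 15.3 CPM, and in 3 post-KD libraries, the highest at 2.65 CPM, with a change of -1.74 (SE 1.34). *Htr1d*, with counts in 5 libraries pre-KD and in 3 post-KD, changed by -0.43 (SE 1.31). *Htr4*, at up to 11.4 CPM pre-KD and 6.82 CPM post-KD, changed by -0.64 (SE 1.32). *Htr5a*, at up to 24.03 and 10.05 CPM, changed by -0.66 (SE 1.01), and *Htr7*, at up to 8.65 and 11.9 CPM, by -0.10 (SE 1.23).

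**Figure D4:**
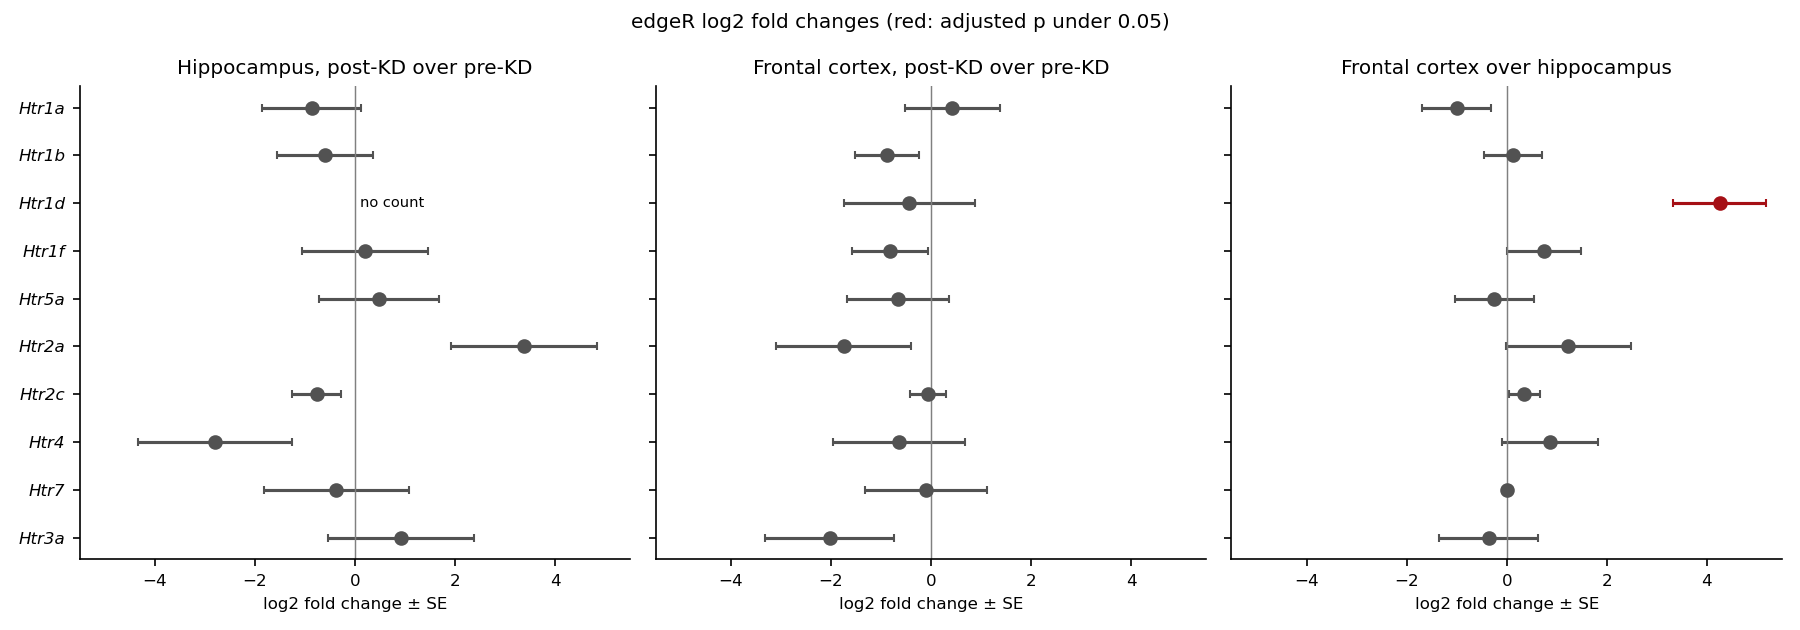
Log2 fold change and SE of each receptor in the 3 comparisons, from edgeR's quasi-likelihood fit; the single red point has an adjusted p under 0.05. The red point is *Htr1d* between regions at 4.25, whose direction was fixed by the filter on counts. The SE of most other receptors reaches or crosses 0, and the difference of *Htr7* between regions is drawn without an SE.

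Whether the change post-KD differed between the regions was tested over all 40 libraries with a term for each cohort. In edgeR 0 of 10 receptors passed an adjusted p of 0.05, where 0.0154% of all genes did, and 0 reached an unadjusted p under 0.05 in edgeR or in DESeq2, against 2.22% and 4.89% of all genes. The lowest p was that of *Htr2c*, whose change in the frontal cortex exceeded that in the hippocampus by 1.09 on the log2 scale (SE 0.65, p = 0.0969, adjusted p = 1). *Htr1d*, at 0 in all hippocampal libraries, had a fitted difference with no SE, which is not read here. The fall in median *Htr2c* from 33.8 to 21.7 CPM in one region and the rise from 25.2 to 36.6 CPM in the other are therefore not shown to differ.

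Between the regions *Htr1d*, a terminal autoreceptor closely related to *Htr1b*, was the 1 receptor of 10 that passed the adjusted test, as higher in frontal cortex; of all genes 5.82% were called higher and 4.14% lower. All 20 hippocampal libraries had 0 counts of *Htr1d*, so it passed the minimum of 10 counts through the frontal cortex alone. It had to be higher there to be tested. With its direction fixed by the filter, the call is not read as a result. Of the frontal cortical libraries 8 had counts, 5 pre-KD (0.528, 2.81, 2.11, 4.44 and 6.56 CPM, donors 3, 4, 5, 7 and 8) and 3 post-KD (7.94, 1.73 and 2.27 CPM, donors 6, 8 and 10). The other 12 were at 0, so that the ranges of the regions still met at 0. The 43 counts of the frontal cortex come to 1.27 CPM of the pooled counts. A limit of 3 counts over the hippocampal group allows up to 0.0979 CPM, a ratio of 13.002. This ratio covers counting error of the hippocampal 0 only and takes the 43 counts as exact. The variance of these counts over frontal cortical libraries was 5.30 times the mean, so the ratio is no lower limit of the difference.

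The log2 fold change of *Htr1d* was 4.25 (SE 0.93, p = 1.71e-05, adjusted p = 0.0015 in edgeR), a fitted value that depends on how 0 counts are handled. With the cohort as a block, the fit that pairs the regions of the same mice, it was 2.78 (SE 1.07, p = 0.00922, adjusted p = 0.187), and the call was lost. DESeq2 gave p = 0.0359 and no adjusted p. Within pre-KD libraries the adjusted p was 0.0798 and within post-KD libraries 0.0617, and without donors 9 and 10 it was 0.00804. Of the 20 cohorts 8 were higher in frontal cortex, 0 lower and 12 at 0 in both. Striatal markers, listed above, moved with the region in the same direction, and their part in the *Htr1d* values was not tested.

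**Figure D5:**
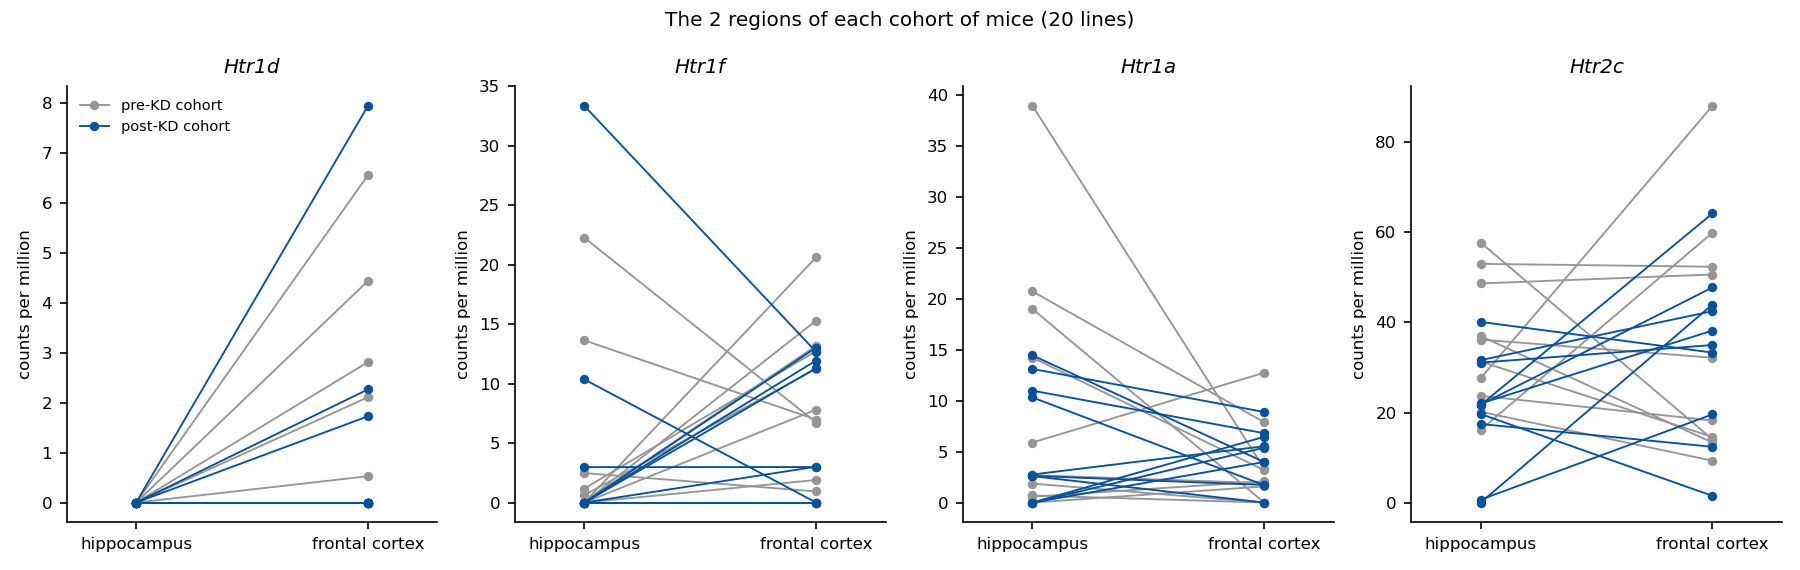
CPM of 4 receptors in the hippocampus and frontal cortex of each of the 20 cohorts (lines join the 2 regions of the same mice; grey pre-KD, blue post-KD). *Htr1d* rises from 0 in 8 cohorts and falls in 0, while lines of *Htr1a* and *Htr2c* run in both directions.

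No other receptor passed between regions. *Htr1f* was at 0 to 33.4 CPM in the hippocampus (median 0, 12 libraries empty) and at 0 to 20.6 CPM in the frontal cortex (median 7.39, 4 empty), higher in frontal cortex in 12 of 20 cohorts and lower in 5. Its log2 fold change was 0.75 (SE 0.75, adjusted p = 0.736 in edgeR), and 2.91 with the cohort as a block (SE 1.07, p = 0.00668, adjusted p = 0.154). *Htr1a* was at 0 to 38.9 CPM in the hippocampus (median 2.72) and at 0 to 12.7 CPM in the frontal cortex (median 3.25), lower in frontal cortex in 13 of 20 cohorts, with a fold change of -1.003 (SE 0.68, adjusted p = 0.511). Mean and median of *Htr1a* pointed in opposite directions, as 5 hippocampal libraries above 14 CPM raised the mean. *Htr2c* differed by 0.35 (SE 0.31, adjusted p = 0.675) and was higher in 10 cohorts and lower in 10.

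*Htr2a* was at 0 in 18 hippocampal and 13 frontal cortical libraries, with a region difference of 1.23 (SE 1.25, adjusted p = 0.743 in edgeR). Without the libraries of donor 7, which include the 1 hippocampal library with 23 counts, the *Htr2a* difference was 3.56 (adjusted p = 0.0126). *Htr2a* then kept 1 hippocampal count and reached the minimum of 10 counts through the frontal cortex alone. It could thus only be called higher there. With *Htr1d*, 2 of 10 receptors were called, beside 874 of 19194 genes called higher and 692 lower in this fit. *Htr1b* differed by 0.12 (SE 0.57), *Htr4* by 0.87 (SE 0.96), *Htr3a* by -0.36 (SE 0.99), *Htr5a* by -0.24 (SE 0.78) and *Htr7* by less than 0.01, too near 0 for an SE from this fit (DESeq2 -0.03, SE 0.95). Without donors 9 and 10 the direction of 2 of these turned, to -0.05 for *Htr1b* and -1.36 for *Htr7* (adjusted p = 0.991 and 0.611). The median over the 10 receptors was 0.24, beside 0.025 over all genes tested.

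Of the 4 serotonin receptor genes outside this set, *Htr3b*, *Htr2b* and *Htr5b* were scarcer than any member, while *Htr6* had 142 counts. *Htr3b*, the partner subunit of *Htr3a*, had 0 counts in all 40 libraries. *Htr2b* had 1 count, in a hippocampal library. *Htr5b* had 11 counts in 2 pre-KD libraries of the hippocampus (up to 4.97 CPM) and 0 elsewhere, and was called lower in frontal cortex (fitted log2 fold change -1.79, adjusted p = 0.0315 in edgeR, 0.741 with the cohort as a block and 0.0707 without donors 9 and 10). It reached the minimum of 10 counts through the hippocampus alone, so it could only be called in this direction. Of the 11 counts 8 (72.7%) came from the library of donor 8, without which *Htr5b* had too few counts to be tested. The Gs-coupled *Htr6* had a count in 6 hippocampal and 8 frontal cortical libraries, up to 13.5 and 12.3 CPM, and passed no test.

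Around the receptors, the pathway was described with 51 further genes: the 4 other receptors and lists for synthesis, transport and breakdown, G proteins, effectors, and regulators and scaffolds. Of these 51, 46 had enough hippocampal counts to test and 44 enough frontal cortical counts, and 0 were called between post-KD and pre-KD in either region by edgeR or DESeq2; at an unadjusted p under 0.05 there were 3 in each region in edgeR (all genes: 10.1% of hippocampal and 9.68% of frontal cortical tests) and 2 in each in DESeq2 (3.42% and 4.62% of all genes). The median log2 fold change was 0.02 for hippocampal and -0.05 for frontal cortical tissue. Between regions, 10 of 47 tested genes were called higher in frontal cortex and 4 lower, where 5.82% and 4.14% of all genes were. Of these 14, *Tph1*, *Tph2* and *Htr5b* were at 0 in one region and reached the minimum of 10 counts through the other alone, so their direction was fixed by the filter and their calls are not read as results. DESeq2 called 9 higher and 3 lower, with 2.07% of all genes called in each direction.

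*Tph1*, *Tph2* and *Slc6a4* gave few reads, and the cell bodies of serotonin neurons lie outside both regions. *Tph2*, the neuronal rate-limiting enzyme, had 15 counts in 1 hippocampal library (9.01 CPM) and 0 in the other 39, and *Slc6a4*, the serotonin transporter, was at 0 to 3.24 CPM in the hippocampus and 0 to 0.936 CPM in the frontal cortex. *Tph1*, the peripheral enzyme, had 15 counts in 3 frontal cortical libraries, 13 of them in 1, and 0 in the hippocampus. *Ddc*, which completes the synthesis of serotonin and of dopamine, had a count in 39 of 40 libraries, at a median of 4.68 CPM, and passed no adjusted test. edgeR called *Tph2* lower (fitted log2 fold change -2.05, adjusted p = 0.0274) and *Tph1* higher in frontal cortex (1.95, adjusted p = 0.0298), and DESeq2 gave no adjusted p for either. Each was at 0 in the other region and could only be called in the direction it was. Without the donor that gave most of the reads (donor 7 for *Tph2*, donor 3 for *Tph1*) neither gene had enough counts to be tested. With the cohort as a block the adjusted p was 0.774 for *Tph2* and 0.710 for *Tph1*, and without donors 9 and 10 it was 0.0626 and 0.0668. The monoamine oxidases that degrade serotonin were measured throughout, *Maoa* at a median of 17.91 CPM in the hippocampus and 17.97 CPM in the frontal cortex and *Maob* at 11.96 and 13.19 CPM. *S100a10*, a partner protein of HTR1B and HTR4, was at 16.7 and 12.3 CPM. *Maoa*, *Maob* and *S100a10* passed no test between conditions or regions.

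G proteins, effectors, and regulators and scaffolds, which serve other receptors too, held 11 of the 14 region calls, all of genes with a count in every library. DESeq2 called the same 11 in the same directions, and *Gnaq* as lower. Genes of Gs and adenylyl cyclase signalling were among them: *Gnal*, the Gs-like alpha subunit of striatum and olfactory system, at 110.1 ± 44.96 CPM in the hippocampus and 256 ± 49.5 CPM in the frontal cortex (SD, n = 20; log2 fold change 1.21, SE 0.13, adjusted p = 4.69e-12 in edgeR). *Adcy5* was higher by 1.19 (SE 0.18), whereas *Adcy1* was lower, at -0.46 (SE 0.10), and *Gnas* at -0.18 (SE 0.06, adjusted p = 0.047, 0.125 with the cohort as a block and 0.285 without donors 9 and 10). On the Gq side, *Plcb4* was higher by 1.26 (SE 0.18), *Itpr1*, the IP3 receptor, by 0.67 (SE 0.09) and *Plcb1* by 0.44 (SE 0.09). The regulators of G protein signalling *Rgs4* and *Rgs2* were higher by 1.02 (SE 0.10) and 0.92 (SE 0.13), *Gnaz* by 0.45 (SE 0.12) and *Prkacb* by 0.34 (SE 0.08). Of these genes *Rgs4* alone had ranges that did not overlap, 60.1 to 331 CPM in the hippocampus and 360.1 to 667 CPM in the frontal cortex; the ranges of the others overlapped, that of *Gnaz* over most of its length (64.1 to 199.9 and 72.9 to 224 CPM). Summed striatal markers had a median of 127 CPM in the hippocampus and 919.6 CPM in the frontal cortex, and their part in the result was not tested.

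*Htr2c* is strongly expressed in choroid plexus. Its log2 CPM was therefore set against the mean log2 CPM of the choroid plexus markers over the 20 libraries of each region. In the hippocampus Pearson's r was 0.158 (permutation p = 0.509) and Spearman's rho 0.176 (p = 0.460), and in the frontal cortex 0.0550 (p = 0.816) and 0.0451 (p = 0.853). Without the 2 libraries farthest from the median of the markers, r was 0.214 and 0.182. Within conditions r was 0.345 pre-KD and 0.0748 post-KD in the hippocampus, and -0.217 and 0.503 in the frontal cortex. *Htr3a* was set against the interneuron markers in the same way, with r = -0.295 (p = 0.204) and rho = -0.270 (p = 0.250) in the hippocampus and r = 0.120 (p = 0.611) and rho = 0.216 (p = 0.357) in the frontal cortex. Without 2 libraries r was -0.369 and 0.452, and within conditions it was -0.339 and -0.218 for hippocampal and 0.103 and 0.604 for frontal cortical libraries. None of these 4 relations passed, with Benjamini-Hochberg adjusted p-values of 0.814 or more for r and 0.613 or more for rho in two-sided permutation tests of 100000 resamples.

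For the 3 receptors with the most counts the genes of most similar pattern were sought by Pearson's r of log2 CPM over the 20 libraries of a region, as a description. In the hippocampus the profile of *Htr2c* was most like those of *Fezf2* (0.888), *Zdhhc14* (0.886) and *Tmem35a* (0.823) among 8015 genes averaging at least 20 counts. Those values rested on the 2 libraries with 0 and 1 count of *Htr2c*: without them r fell to 0.220, 0.198 and 0.0386. In the frontal cortex the genes nearest to *Htr2c* were *Mib2* (0.756), *Amz1* (0.734) and *Lsm7* (0.717), and without the 2 libraries lowest in *Htr2c* r was 0.860, 0.602 and 0.710.

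*Htr1b* was most like *Hnrnpc* (0.751), *Tsn* (0.743) and *Lin7a* (0.731) in the hippocampus, and like *Arhgef17* (0.730), *Rbm24* (0.670) and *Wscd2* (0.661) in the frontal cortex. *Htr1f* was most like *Tra2a* (0.755), *Synj2bp* (0.685) and *Git2* (0.671) in the hippocampus, and like *Dkk3* (0.866), *Nwd1* (0.793) and *Abcc5* (0.766) in the frontal cortex. *Htr1b* averaged 13.1 and 16.1 counts in hippocampal and frontal cortical libraries and *Htr1f* 6.7 and 13.1, fewer than the 20 asked of compared genes. Without the 2 libraries farthest from the median of the compared gene, r lay between 0.566 (*Arhgef17*) and 0.805 (*Dkk3*) for these receptors. No gene was among the nearest of a receptor in both regions. Libraries of a region share their dissection and differ in depth, and such a rank over the many genes compared carries no test.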

How the data were processed

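RNA-seq libraries were made from hippocampus and frontal cortex pooled from 6 mice of each cohort. The authors deposited unnormalized counts of 20 libraries per region for 47643 Ensembl genes, for which paired reads of 69 bases had been trimmed, aligned to mm10 with STAR 2.5.2a and counted with HTSeq-count 0.6.0, as the methods state. The annotation release is not given in the sources used here, and the sources name 2 library kits. All 40 columns were used, and 47224 identifiers were matched to GENCODE M21 symbols. The authors' own comparisons were not used.

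Tests used edgeR 4.0.16 (quasi-likelihood, TMM, genes with 10 or more counts summed over a fit, limma 3.58.1, R 4.3.3), with Benjamini-Hochberg adjustment over all genes and a threshold of 0.05: post-KD against pre-KD within each region, frontal cortex against hippocampus over 40 libraries, and the difference between the regions in the change post-KD with a term per cohort. The SE of a log2 fold change in edgeR is its size over the square root of the F statistic, which is unstable near a change of 0. Log2 CPM used a prior count of 2. Correlations used permutation tests of 100000 resamples (scipy 1.17.1, numpy 2.4.6, pandas 2.3.3, Python 3.11.15), and plots matplotlib 3.10.9. Alternatives were DESeq2 1.42.0, no filter, filterByExpr, RLE size factors, donor or cohort as a replicate block, a Y-linked covariate, single conditions, and leaving out each donor. Leaving out donors 9 and 10 together was added after the data were seen. On simulated data edgeR's adjusted threshold passed more unchanged genes than it should, so counts of calls in DESeq2 are given beside those of edgeR.

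Donors pair the cohorts and cohorts pair the regions by design. In the values, correlations of deviations from group means over genes averaging at least 20 counts lay between -0.0279 and 0.0299 for donor pairs in the hippocampus, between -0.0564 and 0.0317 in the frontal cortex, and between -0.0231 and 0.202 for the 2 regions of a cohort (1 of 20 over 0.1). Of 180 pairs of libraries within groups 0 were identical. With few reads per receptor and a spread beyond counting error, small differences could not be detected.

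The members and gene lists were chosen with earlier results of these data known. The genes named are the 10 members, the 4 other receptors, pathway genes called in any comparison, *Slc6a4*, *Tph2*, *Maoa*, *Maob* and *S100a10*, the 3 genes most like each of the 3 members with the most counts, and listed markers; *Xist*, *Ddc*, *Gnaq*, and *D430036J16Rik* for its overlap, were added after the data were seen. The sequence of *Htr4* is not printed here.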

Additional observations from a re-analysis of the deposited data

Results flagged for a closer look

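Of 38 groups of 10 libraries with a count, 15 held a library whose gap to the next exceeded Dixon's 95% limit. Chance would flag about 5% of groups of normally distributed values. Groups with many 0 counts are not normally distributed, so the 5% is no measure for them. In each of the 15 the outlying library was the highest. For *Htr1a* it was the pre-KD hippocampus of donor 9 (38.9 CPM, next 20.7). For *Htr1d* it was the post-KD frontal cortex of donor 6 (7.94 CPM, next 2.27), and for *Htr1f* the post-KD hippocampus of donor 8 (33.4 CPM, next 10.4). *Htr2a* stood out in the pre-KD hippocampus of donor 8 (0.621 CPM, a single count, all others 0), in the post-KD hippocampus of donor 7 (13.8 CPM, all others 0) and in the pre-KD frontal cortex of donor 5 (15.3 CPM, next 2.54). *Htr3a* did so in the post-KD frontal cortex of donor 7 (4.69 CPM, next 1.99).

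*Htr4* was outlying in the post-KD hippocampus of donor 8 (1.31 CPM, 2 counts), in the pre-KD frontal cortex of donor 7 (11.4 CPM, next 3.16) and in the post-KD frontal cortex of donor 4 (6.82 CPM, next 1.76). *Htr5a* was so in the pre-KD hippocampus of donor 5 (18.8 CPM, next 9.05) and the pre-KD frontal cortex of donor 1 (24.0 CPM, next 8.65). *Htr7* was so in the post-KD hippocampus of donor 6 (8.82 CPM, next 4.09) and in both frontal cortical libraries of donor 9, pre-KD (8.65 CPM, next 3.803) and post-KD (11.9 CPM, next 2.27). *Htr2c* and *Htr1b* had no such library in any group. These libraries come from several donors, and the cause was not tested.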

How the results depend on the processing

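Called counts of 0 in the post-KD comparisons stayed 0 under every alternative for the receptors. For the 51 further pathway genes, 2 (*Tph2* and *Htr5b*) passed in the hippocampus without a filter on low counts, against 0, where 1291 of all genes did against 1. Between regions 1 receptor (*Htr1d*) was called, but 0 with DESeq2, which gave no adjusted p for it, 0 with filterByExpr, which left it out, 0 with the cohort as a replicate block and 0 in pre-KD or post-KD libraries alone, and 1 to 2 with a donor left out (2 without donor 7). *Htr1d*, and *Htr2a* without donor 7, reached the minimum of 10 counts through the frontal cortex alone, so their direction was fixed by the filter. Pathway genes called between regions were 14, against 6 in pre-KD and 8 in post-KD libraries alone. Over all genes, 1935 were called between regions, 554 with the cohort block, 606 with DESeq2, 452 with filterByExpr and 930 without donors 9 and 10. The donor block changed no call of a receptor in either region. In the test between regions of the change, dropping the cohort block raised the calls over all genes from 3 to 348, with 0 receptors (*Htr2a* -5.13, adjusted p = 0.222). In the frontal cortex 5 of 10 receptors kept their rank by CPM. None of the reversals that follow concerns a receptor that was called in that comparison. In the hippocampus, the log2 fold change of *Htr1f* turned to -0.41 in DESeq2 and, with the donor block, to -0.29 in edgeR and -0.13 in DESeq2, that of *Htr2a* to -0.15 in DESeq2, and that of *Htr7* to 0.0071 with a Y-linked covariate. In the frontal cortex *Htr2a* turned to 0.088 in DESeq2, and *Htr2c* to 0.087 and 0.11 with the donor block in edgeR and DESeq2 and to 0.023 with the covariate. Between regions, pre-KD libraries alone gave 1.098 for *Htr3a*, -0.15 for *Htr4*, 0.33 for *Htr5a* and -0.15 for *Htr7*, post-KD libraries alone -0.017 for *Htr1b* and -1.18 for *Htr2a*, and the cohort block 0.44 for *Htr3a*, 0.087 for *Htr5a* and -0.062 for *Htr7*. *Htr7* was at -0.033 in DESeq2 and at -0.034 with RLE size factors, and without donors 9 and 10 *Htr1b* was at -0.052 and *Htr7* at -1.36. With 1 donor left out the hippocampal change ran from -1.19 to 0.027 for *Htr1b*, -1.44 to 1.33 for *Htr1f*, -0.018 to 1.92 for *Htr3a*, -0.025 to 1.43 for *Htr5a* and -0.78 to 0.0069 for *Htr7*. The frontal cortical change ran from -1.87 to 0.039 for *Htr1d*, -2.52 to 0.052 for *Htr2a*, -0.29 to 0.16 for *Htr2c*, -2.003 to 0.66 for *Htr4* and -0.72 to 0.10 for *Htr7*. The region difference ran from -0.20 to 0.29 for *Htr1b*, -1.05 to 0.094 for *Htr3a*, -0.97 to 0.13 for *Htr5a* and -1.10 to 0.84 for *Htr7*. The cause of these reversals was not tested. Libraries held 23 to 221 receptor counts, and the variance of each receptor's counts was 6.27 to 18.9 times the mean, so the spread between libraries went beyond counting error.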
